A study of Mus musculus with 16 samples.

Results

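The 40 genes described here encode proteins of the chemical synapse and of neurotransmission, and their RNA levels were measured in sorted astrocytes and neurons of the mouse neocortex at postnatal day 4. The genes were chosen by symbol, 21 of them presynaptic and 19 postsynaptic, and each symbol matched 1 Ensembl identifier among the 53379 genes counted. At a synapse, vesicles loaded with transmitter are docked and primed at the active zone, SNARE proteins fuse them with the membrane when calcium enters, and receptors held by a postsynaptic scaffold detect the released transmitter. Neurexins on the presynaptic side and neuroligins on the postsynaptic side bridge the cleft. In the first postnatal week most cortical synapses have yet to form, and astrocytes also transcribe several of these adhesion and receptor genes.

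All cells came from mice labelled as strain CD1 (the methods of the study give a mixed background of C57BL/6 and CD1) carrying MADM cassettes on chromosome 7 (MADM7-GT/TG), Emx1-cre, which acts in cortical progenitors, and the XGFAP-lacZ transgene, in which a human GFAP promoter drives lacZ. MADM (mosaic analysis with double markers) labels sparse recombined cells, here the green ones. Green cells with lacZ were sorted as astrocytes and green cells without lacZ as neurons, so the neuron gate was defined by the absence of a marker and could hold other lacZ-negative cells of the Emx1 lineage. Libraries came from single animals. Eed+/+ cells (5 astrocyte and 2 neuron libraries) came from wild-type mice, and Eed-/- cells (5 astrocyte and 3 neuron libraries) were sparse mutant cells in otherwise heterozygous mosaic mice. Eed is a core subunit of the Polycomb repressive complex PRC2, which silences genes through methylation of histone H3. By the breeding scheme the study describes, green cells of both genotypes carried 2 paternal copies of chromosome 7, on which 6 of the 40 genes lie (Sv2b, Slc17a6, Slc17a7, Dlg2, Shank1 and Shank2).

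Reads assigned to genes numbered 211736 to 3178529 per library, and 10 of the 15 libraries were within limits of 60% and 1000000 uniquely aligned reads. Those outside were Eed+/+ astrocyte replicate 3, Eed-/- astrocyte replicates 1, 3 and 4, and Eed+/+ neuron replicate 2. Eed lay between 3.72 and 81.8 CPM (counts per 1000000 gene reads, TMM scaled) in Eed+/+ libraries and between 0 and 37.8 CPM in Eed-/- libraries, counted over the whole gene. It separated the genotypes in neurons (64.6 and 81.8 against 16.4 to 37.8 CPM) and in astrocytes (28.2 to 75.6 against 0 to 17.2 CPM) but for Eed+/+ astrocyte replicate 3, which had 2 reads of it. The sorted populations overlapped in their markers. The 24 astrocyte markers summed to 18970 to 40160 CPM in neuron libraries and to 6821 to 91830 CPM in astrocyte libraries, and the 20 neuron markers to 2458 to 5642 CPM and 220.8 to 6348 CPM. Within the limits the astrocyte marker sums did not overlap (34270 to 91830 CPM in 6 astrocyte and 18970 to 28920 CPM in 4 neuron libraries). Markers of the oligodendrocyte lineage summed to 1397 to 4244 CPM in neuron libraries, above the neuron markers in Eed+/+ replicate 1 and Eed-/- replicate 1. Every neuron library thus held more astrocyte marker than neuron marker RNA. Eed+/+ astrocyte replicate 3 had the highest neuron marker sum of the 15 libraries (6348 CPM) and, at 15950 CPM, fewer astrocyte markers than any neuron library, and the names astrocyte and neuron are used below as the labels give them. Erythroid markers reached 5789 and 8024 CPM in Eed-/- astrocyte replicates 1 and 4, and microglia markers 9332 and 3502 CPM in replicates 1 and 3. Their part in the results was not tested.

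To show how often these genes share regulatory letters near their start, the promoters of 28 of the 40 genes (RefSeq, build GRCm38.p6, 250 bases before to 50 after the start) were searched on both strands for TTCAGCACC, the left part of the RE1 element to which the neuronal repressor REST binds, and for TGACGTCA, the cAMP response element. The other 12 were Syt4, Snap25, Vamp2, Nrxn2, Nlgn3, Shank1, Shank2, Gria1, Gria3, Grin2a, Grin2b and Camk2a. The RE1 left site occurred in 3 of the 28 (Syn1, Nlgn1 and Unc13a) and in 0.433% of the 27025 genes with a promoter entry. The cAMP response element occurred in Syn1, 1 of the 28, and in 2.03% of all genes. The sequences before the start are shown for Syn1, which encodes the vesicle protein synapsin, and for Nlgn1, which encodes a neuroligin, each on the strand of its gene with the matched letters in capitals. They lie at chrX:20921112-20921168, chrX:20921040-20921098 and chr3:26154101-26154160, all on the minus strand, and the Unc13a match lay after the start. RefSeq gives 2 starts for Nlgn1, and the stretch shown precedes the one inside the gene.
Syn1 RE1 left site: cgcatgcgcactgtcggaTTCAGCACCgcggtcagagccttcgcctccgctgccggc
Syn1 cAMP response element: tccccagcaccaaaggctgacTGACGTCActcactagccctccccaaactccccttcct
Nlgn1 RE1 left site: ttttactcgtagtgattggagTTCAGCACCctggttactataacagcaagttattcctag

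The synaptic genes were detected in both sorted populations. In libraries within the limits, 30 to 39 of the 40 genes had at least 1 read in the 6 astrocyte libraries and 38 to 40 in the 4 neuron libraries. Outside the limits, 10 to 28 genes were detected in astrocyte libraries and 31 in the neuron library. Gria1, Gria2 and Camk2b had reads in all 15 libraries. Slc17a7 and Grin2a had reads in the fewest, 5 each. A gene without a read can still be present below the floor of 3 counts, which stood at 1.11 to 9.53 CPM depending on the library and covers counting error only.

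**Figure D1:**
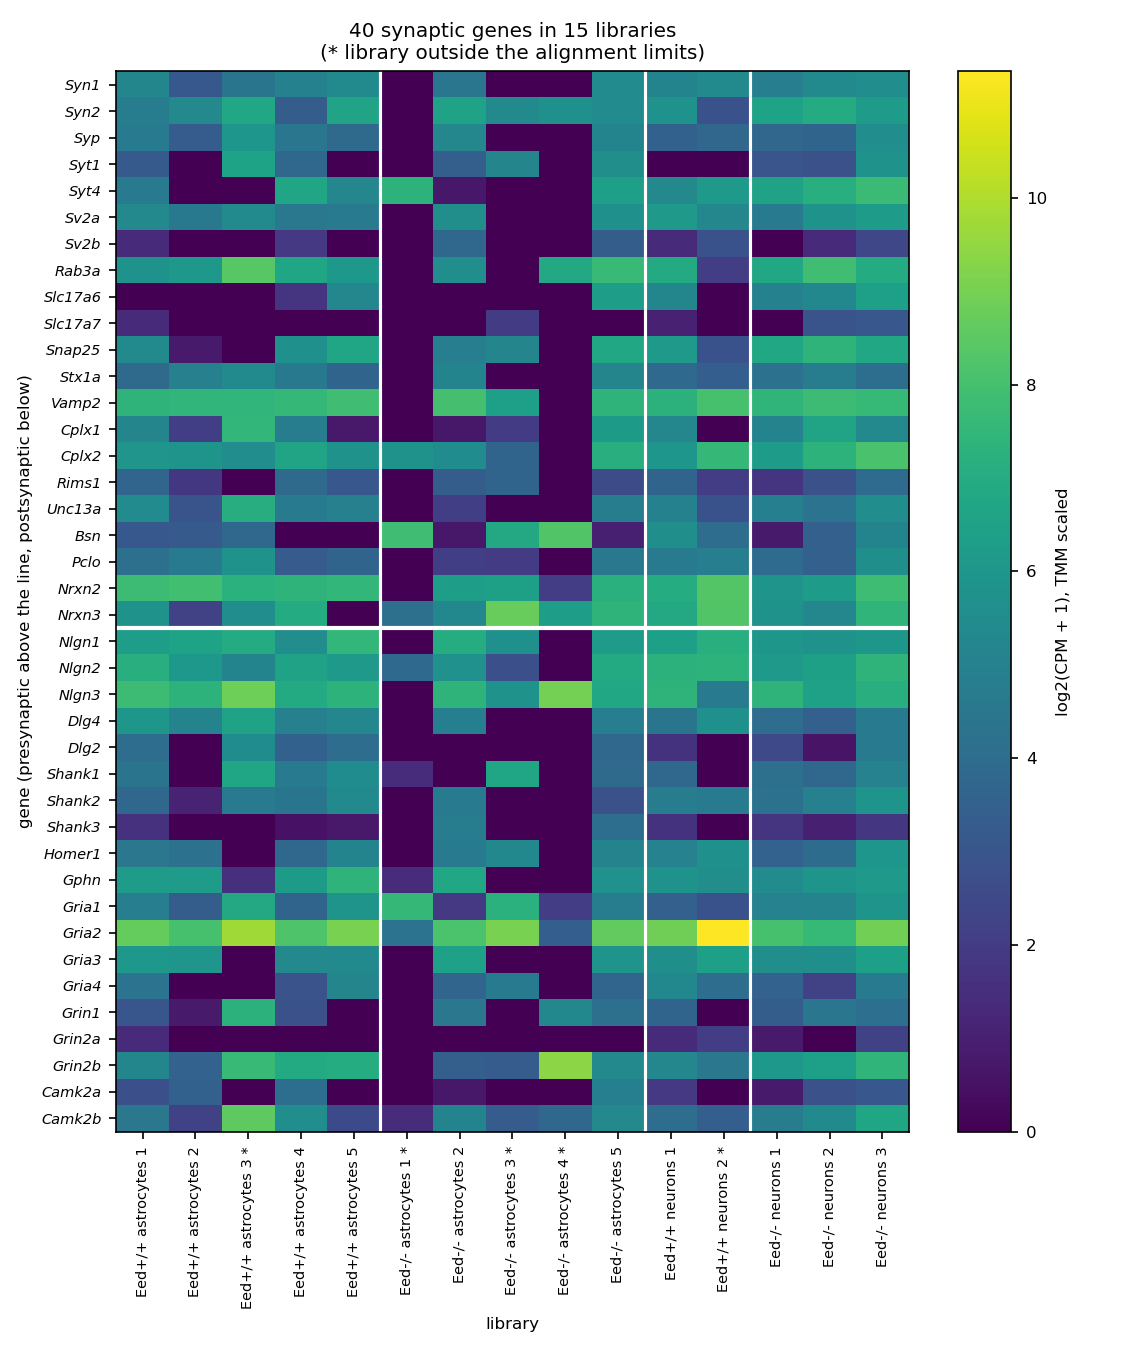
Levels of the 40 genes (rows, 21 presynaptic above the line and 19 postsynaptic below) in the 15 libraries (columns, by group and replicate) as log2(CPM + 1), with an asterisk for libraries outside the alignment limits. Vamp2, Nlgn3 and Gria2 were high in nearly all columns, and the sparsest columns are those of Eed-/- astrocyte replicates 1 and 4, in which 10 and 11 of the genes had a read.

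Per kilobase of exon, which allows genes to be set side by side, the highest median levels over the 5 neuron libraries belonged to Rab3a (54.7 CPM per kb), a GTPase of the vesicle surface, Vamp2 (51.8), the vesicle SNARE, Cplx2 (32.6), a complexin that clamps and promotes fusion, and Gria2 (30.5), the AMPA receptor subunit that limits calcium entry. The lowest were Grin2a (0.0893), Dlg2 (0.131), Sv2b (0.191) and Slc17a7 (0.198). Over the 10 astrocyte libraries the same measure was 29.3 for Rab3a, 45.4 for Vamp2, 11.1 for Cplx2 and 22.4 for Gria2. Vamp2 in libraries within the limits ranged from 165.2 to 258.7 CPM in astrocytes and from 156.4 to 217.5 CPM in neurons, so its ranges overlapped.

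Related genes that replace one another as the cortex matures were unequally represented. The NMDA receptor subunit gene Grin2b, typical of young synapses, stood above Grin2a, which takes over later, in 9 of 10 astrocyte libraries (the tenth held neither) and 5 of 5 neuron libraries, with neuron medians of 2.63 and 0.0893 CPM per kb. Of the subunits of calcium/calmodulin-dependent kinase II, Camk2b stood above Camk2a in 9 of 10 and 5 of 5 libraries, with neuron medians of 2.99 and 0.358 CPM per kb. Among vesicular glutamate transporters, Slc17a6 (VGLUT2) stood above Slc17a7 (VGLUT1) in 4 of 5 neuron libraries, and the fifth held neither. In astrocytes Slc17a6 was the higher in 3 of 10 libraries and Slc17a7 in 2, and 5 held neither. Slc17a7 rested on 27 reads over all 5 neuron libraries, against 316 for Slc17a6. Some astrocyte orders rested on very few reads. Camk2b had 1, 3 and 4 reads in Eed-/- replicates 1, 3 and 4, beside 0 of Camk2a. Grin2b had 3 in Eed-/- replicate 3, beside 0 of Grin2a, and the astrocyte libraries with Slc17a7 had 3 reads and 1 read of it. Gria2 stood above Gria3 and Gria4 in all 15 libraries and above Gria1 in 14, the exception being Eed-/- astrocyte replicate 1. Counting of reads shared between such paralogs could affect each of these orders, since only uniquely aligned reads were counted.

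**Figure D2:**
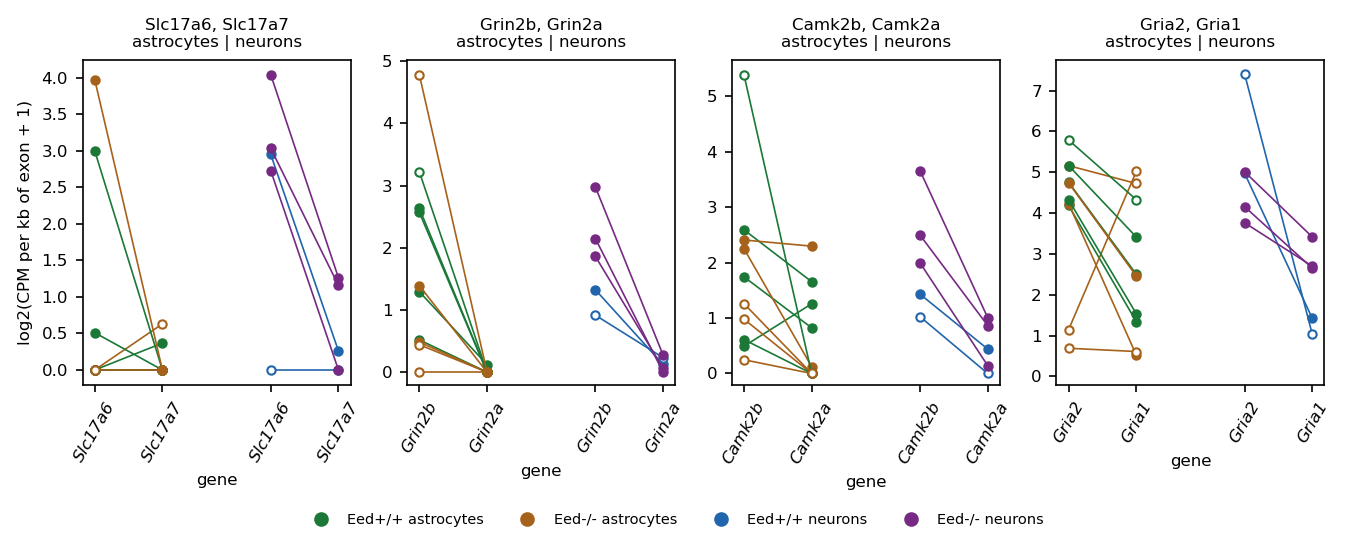
Levels of 4 pairs of related genes in each library as log2(CPM per kb of exon + 1), a line joining the values of 1 library (green, Eed+/+ astrocytes; brown, Eed-/- astrocytes; blue, Eed+/+ neurons; purple, Eed-/- neurons; open points, libraries outside the alignment limits). Grin2b and Camk2b lay above Grin2a and Camk2a in 5 of 5 neuron libraries, and Slc17a6 above Slc17a7 in 4 of 5.

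To ask whether the synaptic genes separated neurons from astrocytes, both populations were compared over both genotypes. None of the 39 genes tested was called at an adjusted p of 0.05 by edgeR (0 of 39; Grin2a did not pass the filter on low counts), beside 0.015% of all 13367 genes tested. DESeq2 called 0 of the 38 genes to which it gave an adjusted p, beside 0.0391% of all genes, and limma-voom 0 beside 0%. At an unadjusted p under 0.05 edgeR found 1 of 39, Syt1, beside 5.51% of all genes. Of the markers, edgeR also called 0 of 24 for astrocytes (smallest adjusted p 0.472) and 0 of 20 for neurons (smallest 0.9). The absence of calls is therefore not particular to the synaptic genes. In no gene did every neuron library exceed every astrocyte library (0 of 39 beside 0.449% of all genes) or the reverse (0 of 39 beside 0.0224%). Standard errors of the log2 fold changes ran from 0.81 to 1.79 with a median of 1.18, so a difference of several-fold in a single gene would be within the error. Except for Syt1, the genes named in the next paragraphs had edgeR adjusted p of 1.00 in this contrast.

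The signs of the estimates differed within each list, and the difference between the lists was not tested. Of 21 presynaptic genes 17 had a negative log2 fold change (astrocytes minus neurons), with a median of -0.55, and of 18 postsynaptic genes 8 had, with a median of 0.33. The median over all genes was -0.34, with 8557 of 13367 negative. Within the alignment limits the medians were -0.57, -0.12 and -0.16, and the postsynaptic median was therefore of the other sign. Without Eed+/+ neuron replicate 1 they were 0.19, 0.41 and 0.17, so that the presynaptic median turned to the side of astrocytes. Summed over their genes, presynaptic RNA was 1021 ± 305 CPM in Eed+/+ astrocytes (SD, n = 5), 825 ± 402 in Eed-/- astrocytes (n = 5), 1196 ± 186 in Eed+/+ neurons (n = 2) and 1458 ± 471 in Eed-/- neurons (n = 3). The postsynaptic sums were 1437 ± 705, 910 ± 392, 2236 ± 1461 and 1088 ± 447 CPM, and all groups overlapped. In these bulk libraries, fewer cells of a type and less RNA per cell cannot be told apart.

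**Figure D3:**
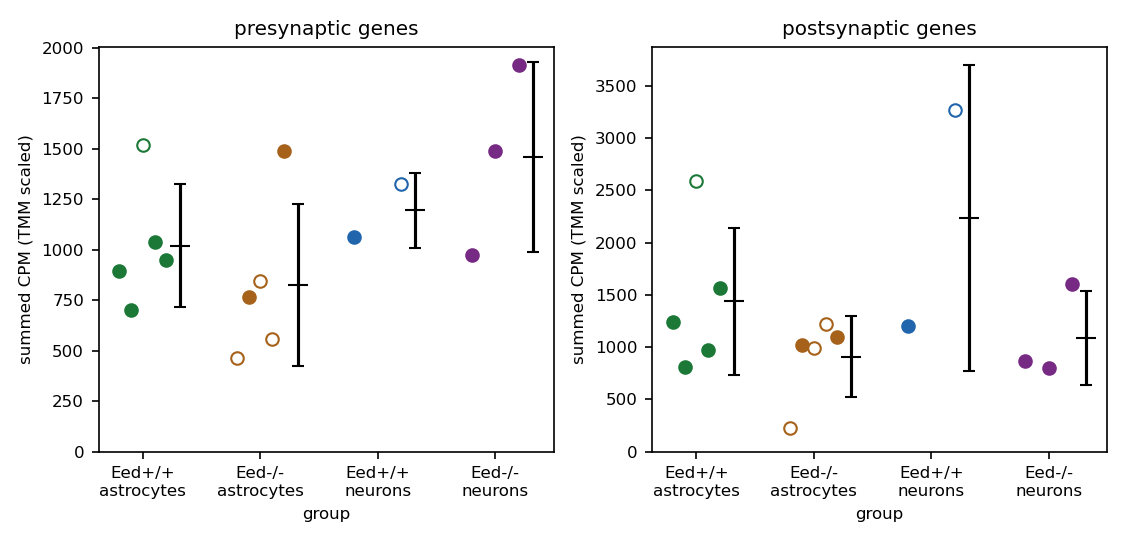
Summed CPM (TMM scaled) of the 21 presynaptic and the 19 postsynaptic genes in each library by group, with the mean and SD beside the points and open points for libraries outside the alignment limits. The presynaptic sum was highest in an Eed-/- neuron library (1913 CPM) and the postsynaptic sum in Eed+/+ neuron replicate 2 (3269 CPM), of which 2624 CPM were Gria2.

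Among presynaptic genes with higher estimates in neurons, Slc17a6, Slc17a7 and Cplx2 had the smallest p. Slc17a6 was at 0, 0, 0, 2.29 and 37.8 CPM in Eed+/+ astrocytes, at 0, 0, 0, 0 and 79.5 CPM in Eed-/- astrocytes, at 36.3 and 0 CPM in Eed+/+ neurons and at 30.4, 38.8 and 83.5 CPM in Eed-/- neurons. The transporter thus had no read in 7 of 10 astrocyte libraries and reads in 4 of 5 neuron libraries, but the astrocyte library with the most, Eed-/- replicate 5, lay within the neuron range. That library held 4303 CPM of neuron markers, more than 4 of the 5 neuron libraries. Its log2 fold change was -1.42 (SE 1.19, edgeR adjusted p = 1.00). Without that library the edgeR adjusted p was 0.0778, and without Eed+/+ neuron replicate 1 the sign turned (edgeR adjusted p = 0.996). No fold is given for either, since 1 group was then left with 0 reads of the gene and the estimate depends on the prior count. The 3 astrocyte libraries with Slc17a6 reads all belonged to the second run of library numbers, which holds no neurons. Within the first run Slc17a6 had 0 reads in 5 astrocyte libraries and 316 over 5 neuron libraries, of which 4 had reads. EdgeR gave an adjusted p of 0.178 there. The gene was singled out in that run for its 0 reads in astrocytes, so no fold is given and these counts add no separate support.

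Slc17a7 was at 1.57, 0, 0, 0 and 0 CPM in Eed+/+ astrocytes, at 0, 0, 2.96, 0 and 0 CPM in Eed-/- astrocytes, at 1.07 and 0 CPM in Eed+/+ neurons and at 0, 6.64 and 7.54 CPM in Eed-/- neurons. Values of this size stand for 1 to 13 reads, and the log2 fold change of -2.09 (SE 1.47) had an edgeR adjusted p of 1.00. Cplx2 was at 60.04, 57.5, 46.5, 97.2 and 55.0 CPM in Eed+/+ astrocytes, at 54.8, 45.5, 11.8, 0 and 142.0 CPM in Eed-/- astrocytes, at 61.9 and 185.7 CPM in Eed+/+ neurons and at 76.3, 160.8 and 272.6 CPM in Eed-/- neurons. All 5 neuron libraries exceeded 8 of the 10 astrocyte libraries, and the other two fell among them (log2 fold change -1.34, SE 1.01).

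Of the postsynaptic genes with higher estimates in neurons, Gria2 led, followed by Nlgn2, the neuroligin of inhibitory synapses, and Shank2, a scaffold of excitatory ones. Gria2 was at 404.6, 267.7, 845.0, 296.1 and 541.6 CPM in Eed+/+ astrocytes, at 18.8, 277.1, 541.3, 9.53 and 399.8 CPM in Eed-/- astrocytes, at 473.5 and 2624 CPM in Eed+/+ neurons and at 261.7, 195.6 and 486.1 CPM in Eed-/- neurons. Apart from Eed+/+ neuron replicate 2 the neuron values lay inside the astrocyte range, and the log2 fold change of -1.03 (SE 0.81) was -0.19 without that library. Nlgn2 was at 142.5, 65.2, 33.5, 93.1 and 68.1 CPM in Eed+/+ astrocytes, at 13.7, 52.1, 5.92, 0 and 121.8 CPM in Eed-/- astrocytes, at 156.9 and 160.5 CPM in Eed+/+ neurons and at 67.0, 86.8 and 168.3 CPM in Eed-/- neurons. Shank2 was at 13.1, 1.11, 24.2, 20.2 and 42.6 CPM in Eed+/+ astrocytes, at 0, 25.7, 0, 0 and 6.04 CPM in Eed-/- astrocytes, at 26.2 and 25.2 CPM in Eed+/+ neurons and at 17.9, 30.1 and 57.1 CPM in Eed-/- neurons. For both genes the lowest values were those of poorly aligned Eed-/- astrocyte libraries, and neither passed the test (log2 fold changes -1.21, SE 1.02, and -1.34, SE 1.20).

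The presynaptic genes with higher estimates in astrocytes were led by Syt1, the calcium sensor of fast release. Syt1 was at 8.35, 0, 94.9, 12.8 and 0 CPM in Eed+/+ astrocytes, at 0, 9.90, 35.5, 0 and 47.3 CPM in Eed-/- astrocytes, at 0 and 0 CPM in Eed+/+ neurons and at 7.01, 6.13 and 54.0 CPM in Eed-/- neurons. Reads were present in 6 of 10 astrocyte and in 3 of 5 neuron libraries, and the neuron range lay inside the astrocyte range. The edgeR adjusted p was 0.824, and a fold over both genotypes is not given because Eed+/+ neurons held no read. Next came Bsn, a giant active zone scaffold protein (log2 fold change 0.29, SE 1.18), whose estimate was -0.03 without Eed+/+ neuron replicate 2. Within the alignment limits Bsn lay on the side of neurons by estimate (-3.86, edgeR adjusted p = 0.559), at 0 to 8.16 CPM in 6 astrocyte and 0.779 to 50.2 CPM in 4 neuron libraries.

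The postsynaptic genes with higher estimates in astrocytes were led by Gria1, an AMPA receptor subunit, and Shank1, another scaffold gene. Gria1 was at 28.2, 9.27, 115.4, 11.5 and 58.4 CPM in Eed+/+ astrocytes, at 190.0, 2.64, 153.8, 3.18 and 27.2 CPM in Eed-/- astrocytes, at 10.1 and 6.29 CPM in Eed+/+ neurons and at 31.9, 33.2 and 58.4 CPM in Eed-/- neurons. The 3 highest values came from poorly aligned astrocyte libraries, and the log2 fold change of 1.63 (SE 1.25) was -0.09 within the alignment limits. Shank1 was at 19.8, 0, 102.4, 24.7 and 45.4 CPM in Eed+/+ astrocytes, at 1.71, 0, 103.5, 0 and 14.1 CPM in Eed-/- astrocytes, at 12.8 and 0 CPM in Eed+/+ neurons and at 17.1, 12.8 and 31.4 CPM in Eed-/- neurons (log2 fold change 1.32, SE 1.31). Its 2 highest libraries were again outside the limits, within which the estimate was -0.43. With only the libraries within the limits, no gene had every neuron library above every astrocyte library (0 of 39 beside 2.05% of all genes), and 1 had the reverse order (beside 1.56%), Dlg4, named after its values were seen, which encodes the scaffold PSD-95 and ranged from 28.2 to 62.7 CPM in 6 astrocyte and from 10.2 to 24.5 CPM in 4 neuron libraries.

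**Figure D4:**
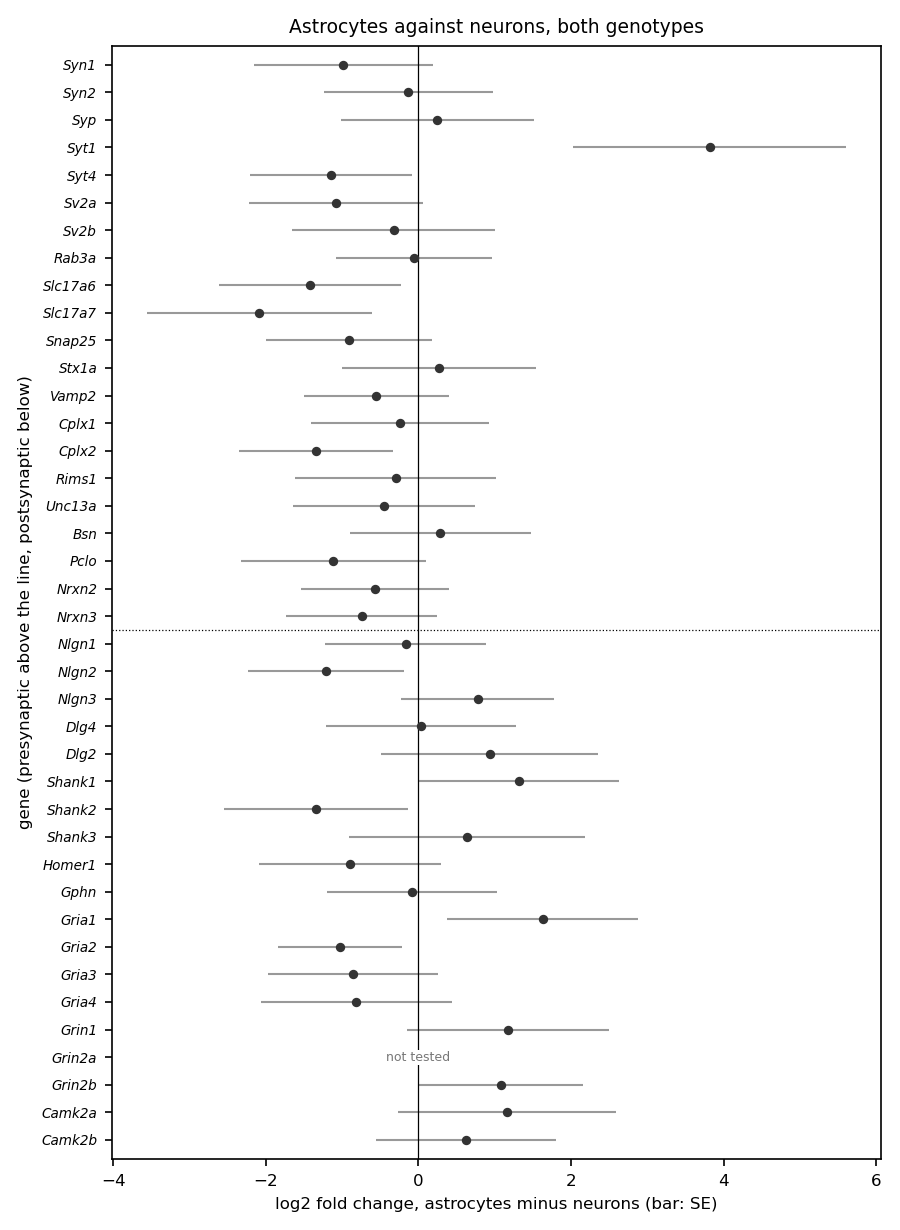
Log2 fold change of each gene, astrocytes minus neurons over both genotypes, with its standard error (edgeR), presynaptic genes above the line and postsynaptic genes below. Of the presynaptic genes 17 of 21 lay left of 0 and of the postsynaptic genes 8 of 18, beside 8557 of 13367 over all genes. At an adjusted p of 0.05, 0 of 39 passed. The position of Syt1 depends on the prior count, since Eed+/+ neurons held 0 reads of it.

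Between Eed+/+ astrocytes and Eed+/+ neurons edgeR called 0 of 39 genes, beside 0.00748% of all genes, DESeq2 0 of 38 beside 0.0625%, and limma-voom 0 beside 0%. At an unadjusted p under 0.05 edgeR found 1 gene, Syt1, beside 2.29% of all genes. Syt1 had 95 reads over the 5 Eed+/+ astrocyte libraries and 0 over the 2 Eed+/+ neuron libraries, at least 7.90-fold higher in astrocytes against a floor of 3 counts over the group. Of the 95 reads 51 were from Eed+/+ astrocyte replicate 3, without which the bound was 3.90-fold, and without Eed+/+ neuron replicate 1 it was 1.15-fold. Estimates were on the side of neurons for 13 of 21 presynaptic and 8 of 18 postsynaptic genes, beside 6303 of 13367 over all genes. The medians were -0.21 and 0.56, beside 0.08 over all genes. The presynaptic median turned to 1.07 without Eed+/+ neuron replicate 1, and the postsynaptic one was 0.03 without Eed+/+ astrocyte replicate 3. Of the 20 neuron markers 8 had estimates on the side of neurons, with a median of 0.46. Between Eed-/- astrocytes and Eed-/- neurons edgeR called 0 of 39, beside 0.0598% of all genes, DESeq2 0 of 33 beside 0.114%, and limma-voom 0 beside 0.0374%, and edgeR found 0 at an unadjusted p under 0.05 beside 7% of all genes. Between the Eed-/- populations 18 of 21 presynaptic and 12 of 18 postsynaptic genes had estimates on the side of neurons, beside 9705 of 13367 over all genes. The medians were -1.13 and -0.40, beside -0.72 over all genes. These medians were -0.36 and 0.06 within the alignment limits, and the postsynaptic one was 0.14 without Eed-/- neuron replicate 3. Of the 20 neuron markers 19 lay on the side of neurons here, with a median of -1.67, and over both genotypes 14 did, with a median of -0.45. Their part in these results was not tested.

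Loss of Eed in astrocytes was tested on 30 of the 40 genes. The other 10 had too few libraries with enough reads for the filter on low counts, namely Bsn, Camk2a, Cplx1, Grin1, Grin2a, Rims1, Shank3, Slc17a6, Slc17a7 and Sv2b. None of the 30 was called by edgeR (0 beside 0% of all 8956 genes tested), DESeq2 (0 of 28 beside 0.0116%) or limma-voom (0 beside 0%), and 0 had an unadjusted p under 0.05 in edgeR beside 1.21% of all genes. Estimates were lower in Eed-/- cells for 13 of 15 presynaptic and 12 of 15 postsynaptic genes, beside 6393 of 8956 over all genes. The median log2 fold changes were -0.72 and -0.88, beside -0.54 over all genes. Markers moved the same way by estimate, 11 of 15 neuron markers (median -1.35) and 19 of 24 astrocyte markers (median -0.65), and their part in the result was not tested. With RLE size factors, another scaling, the median over all genes was -0.37. Within the alignment limits, where only 2 Eed-/- astrocyte libraries remained, the medians were 0.58, -0.18 and -0.02, and the presynaptic one had changed sign. Leaving out single libraries gave presynaptic medians from -1.26 (without Eed-/- replicate 5) to -0.39 (without Eed+/+ replicate 3).

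The presynaptic genes with the smallest p here were Unc13a, the vesicle priming factor Munc13-1, and Nrxn3, a neurexin. Unc13a was at 43.9, 6.67, 135.9, 25.7 and 29.6 CPM in Eed+/+ astrocytes and at 0, 3.30, 0, 0 and 27.2 CPM in Eed-/- astrocytes (log2 fold change -2.90, SE 1.70). Nrxn3 was at 55.3, 3.71, 46.5, 125.1 and 0 CPM in Eed+/+ astrocytes and at 17.1, 38.3, 414.1, 79.4 and 167.2 CPM in Eed-/- astrocytes (1.74, SE 1.41). For Unc13a the 3 Eed-/- values at 0 were those of the libraries outside the limits, and the estimate within the limits was -0.79. Both genes overlapped between the genotypes.

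Of the postsynaptic genes, Dlg2, the scaffold PSD-93, was at 15.7, 0, 44.7, 10.5 and 15.8 CPM in Eed+/+ astrocytes and at 0, 0, 0, 0 and 13.1 CPM in Eed-/- astrocytes (log2 fold change -2.53, SE 1.59). Camk2b was at 21.4, 3.71, 372.2, 45.8 and 4.81 CPM in Eed+/+ astrocytes and at 1.71, 34.3, 8.87, 12.7 and 39.3 CPM in Eed-/- astrocytes (-2.19, SE 1.54). The Camk2b estimate rested on Eed+/+ replicate 3 and was 0.16 without it. Every Eed-/- library lay below every Eed+/+ library for 2 of 30 genes, Dlg4 and Nrxn2, beside 1.71% of all genes, and above for 0 of 30 beside 0.0112%. For Dlg4 the Eed-/- libraries reached 29.0 CPM and the lowest Eed+/+ library was at 30.2 CPM, and for Nrxn2 the values were 146.0 and 150.8 CPM.

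In neurons 35 genes were tested, and the 5 that did not pass the filter were Camk2a, Dlg2, Grin2a, Shank3 and Sv2b. EdgeR called 0 of 35 (beside 0% of all 11862 genes tested), DESeq2 0 (beside 0.219%) and limma-voom 0 (beside 0%). At an unadjusted p under 0.05 edgeR found 5 of 35 (Syt1, Gria1, Gria2, Grin2b and Camk2b) beside 7.27% of all genes. Estimates were higher in Eed-/- neurons for 12 of 20 presynaptic and 8 of 15 postsynaptic genes, beside 6571 of 11862 over all genes. The median log2 fold changes were 0.62 and 0.04, beside 0.15 over all genes. Without Eed-/- neuron replicate 3 these medians were 0.02 and -0.15. Of the 20 neuron markers 15 had higher estimates too, with a median of 1.03, and their part in the result was not tested.

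Syt1 had 0 reads in both Eed+/+ neuron libraries and 9, 12 and 86 reads in Eed-/- neurons, at least 16.2-fold higher in Eed-/- neurons against a floor of 3 counts over the group (edgeR adjusted p = 0.644). With no filter on low counts the adjusted p was 0.0433, and Syt1 was then the 1 gene of the 40 called, beside 0.536% of all genes. Of the 107 reads, 86 came from Eed-/- neuron replicate 3, without which the bound was 4.73-fold, and without Eed+/+ neuron replicate 1 it was 2.34-fold. Snap25, a SNARE of the plasma membrane, was at 67.8 and 6.29 CPM in Eed+/+ neurons and at 110.6, 166.0 and 111.8 CPM in Eed-/- neurons (log2 fold change 1.64, SE 0.80), and the estimate was 0.91 without Eed+/+ replicate 2.

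Gria2 was lower in Eed-/- neurons by estimate, at 473.5 and 2624 CPM against 261.7, 195.6 and 486.1 CPM (log2 fold change -2.46, SE 0.82, edgeR adjusted p = 0.646). Without Eed+/+ neuron replicate 2, in which 31.0% of reads aligned uniquely, the estimate was -0.63. Gria1 went the other way by estimate, at 10.1 and 6.29 CPM against 31.9, 33.2 and 58.4 CPM (2.15, SE 0.86), and was 1.98 without that library. The groups did not overlap for Gria1. Every Eed-/- library stood above both Eed+/+ libraries for 8 of 35 genes (Camk2b, Gria1, Grin2b, Snap25, Stx1a, Syn2, Syt1 and Syt4), 22.9% beside 15.7% of all genes, and below them for 1 of 35, Nlgn1, beside 7.77%.

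The count of calls changed when Eed+/+ neuron replicate 1 was left out. Without it, 1 Eed+/+ library was left, assumed to vary like the Eed-/- ones, and edgeR called 6 of the genes, beside 20.6% of all 12635 genes tested. Syn2, Rab3a, Slc17a6, Snap25 and Cplx1 were then higher in Eed-/- neurons and Gria2 lower. The library left was the one outside the alignment limits, with 0 reads of Slc17a6 and Cplx1.

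**Figure D5:**
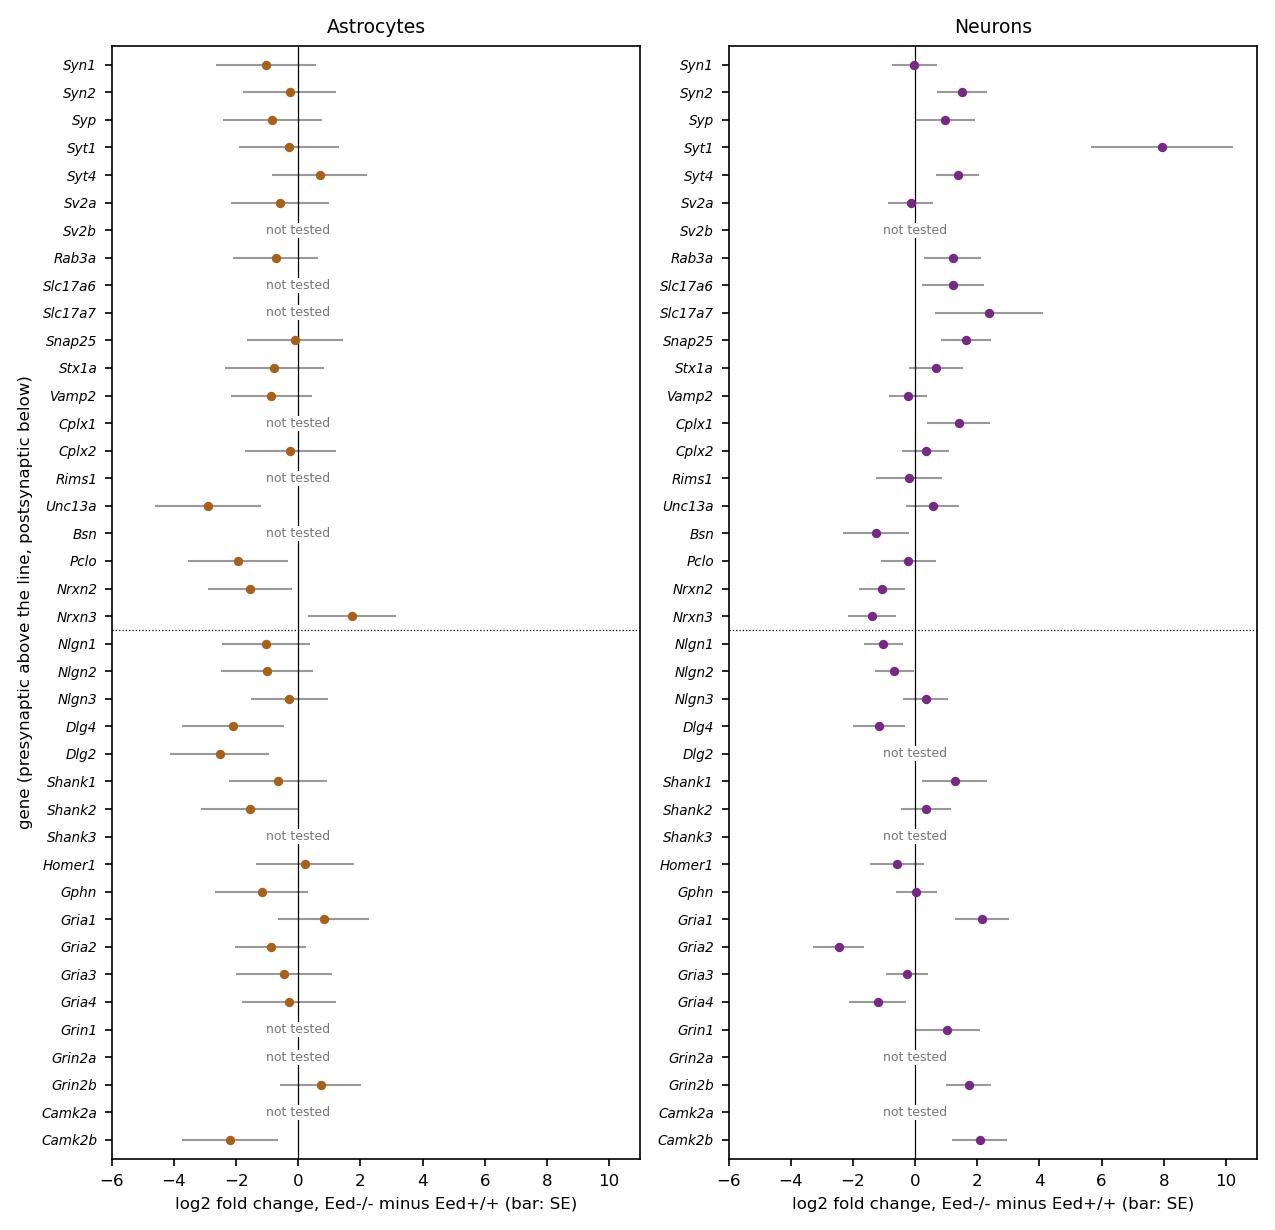
Log2 fold change of each gene, Eed-/- minus Eed+/+, with its standard error (edgeR), in astrocytes and in neurons, presynaptic genes above the line and postsynaptic genes below. In astrocytes 25 of the 30 genes tested lay left of 0, beside 6393 of 8956 over all genes. In neurons 15 of 35 did, beside 5291 of 11862. The point at 7.95 is Syt1, whose Eed+/+ neuron libraries held 0 reads, so that its position depends on the prior count.

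Whether the effect of Eed loss differed between the cell types was tested as an interaction over all 15 libraries. EdgeR called 0 of 39 genes beside 0.0524% of all genes, DESeq2 0 of 35 beside 0.0433%, and limma-voom 0 beside 0%, and 2 of 39, Bsn and Syt1, had an unadjusted p under 0.05 in edgeR beside 3.61% of all genes. Bsn was at 7.83, 8.16, 13.0, 0 and 0 CPM in Eed+/+ astrocytes, at 231.1, 0.660, 115.4, 311.4 and 1.01 CPM in Eed-/- astrocytes, at 50.2 and 15.7 CPM in Eed+/+ neurons and at 0.779, 10.2 and 33.9 CPM in Eed-/- neurons. Its interaction estimate was 5.67 on the log2 scale (SE 2.35, edgeR adjusted p = 0.985). The 3 high Eed-/- astrocyte libraries were the poorly aligned ones, 1 and 4 with erythroid and 1 and 3 with microglia markers, and within the alignment limits the estimate was -0.41. For Syt1 the edgeR adjusted p of the interaction was 1.00, with 0 reads in Eed+/+ neurons.

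Further lists of synaptic genes were compared in the same way. Of 37 tested among 41 further presynaptic genes, 31 among 33 further glutamatergic postsynaptic genes and 16 among 18 genes of the GABA synapse, 0 in each list were called between astrocytes and neurons over both genotypes by edgeR, beside 0.015% of all genes, with median log2 fold changes of -0.17, -0.31 and -0.10 beside -0.34 over all genes. The smallest p on the side of neurons were those of Rph3a, a Rab3 effector (log2 fold change -3.84, SE 1.31), Synj1 (-2.10) and Napb (-1.19), of Lrrtm4, a synaptic adhesion protein (-4.47, SE 1.46), Dlg3 (-3.06) and Dlg1 (-1.84), and of the vesicular GABA transporter Slc32a1 (-3.15, SE 1.35). Rph3a, at 0 to 9.63 CPM in 10 astrocyte and 14.8 to 39.5 CPM in 5 neuron libraries, was the 1 gene of these lists whose neuron libraries all lay above the astrocyte ones, beside 0.449% of all genes. On the side of astrocytes the smallest p were those of Syn3 (1.93), Syngr1 (1.37) and Syt13 (1.62), Cacng7 (1.03), Baiap2 (0.81) and Lrrtm3 (0.57), and Gabrb2 (1.57). The lowest adjusted p among all of these was 0.40, for Lrrtm4.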

How the data were processed

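The 16 libraries were made with Smart-Seq v2 from sorted cells of single animals. The authors aligned reads with STAR to GRCm38 (mm10), per the labels, and deposited raw read counts per gene, neither normalized nor pooled. The sources used here do not give the annotation used for counting. Column 2 (unstranded) was used, since the strands were even, so reads over 22 members whose exons overlap another gene may be uncertain. The 4 lines of totals were left out. Symbols, exon lengths and coordinates came from GENCODE mouse release 21, and promoters from RefSeq.

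Of the libraries 15 had a group. The labels of 1 gave both cell types, and it entered no comparison. Counts were tested with edgeR 4.0.16 in R 4.3.3 (quasi-likelihood, TMM, filterByExpr, robust, two-sided, Benjamini-Hochberg over all genes tested, threshold 0.05) after checks on simulated data. Cell type contrasts and the interaction used all 15 libraries, genotype comparisons the libraries of 1 cell type. DESeq2 1.42.0, limma 3.58.1, other filters and scalings, the alignment limits (which the study names for its embryonic libraries), runs of library numbers and leaving out each library were alternatives. The study set 5 libraries aside without naming them, so all 15 were kept. Values in every library are given for the genes with the smallest p: 3 presynaptic and 3 postsynaptic genes higher in neurons, 2 of each higher in astrocytes, 2 of each per genotype comparison and 2 in the interaction, and for other lists up to 3 genes per direction are named, some genes of the GABA synapse not being reported here. The genes and lists were chosen with earlier results of these data known. The libraries were treated as independent. Between astrocytes and neurons of the same genotype and replicate number, correlations of deviations ran from -0.05 to 0.12. With 2 Eed+/+ neuron libraries, whose deviations mirror each other, these values cannot decide whether such libraries came from the same animal.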

Additional observations from a re-analysis of the deposited data

Results flagged for a closer look

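Of 34 sets of 5 astrocyte libraries (15 genes and 2 sums in each genotype), 13 held 1 library far from the other 4. Chance gives about 1 in 20 for normally distributed values, which these sets were not: 4 of the 13 were a single library with reads beside 4 at 0. In Eed+/+ astrocytes, replicate 3 stood above the others for Camk2b (372.2 CPM), Syt1 (94.9 CPM) and Unc13a (135.9 CPM), replicate 4 for Cplx2 (97.2 CPM), replicate 5 for Slc17a6 (37.8 CPM) and replicate 1 for Slc17a7 (1.57 CPM, 3 reads). In Eed-/- astrocytes, replicate 5 stood above the others for Slc17a6 (79.5 CPM), Dlg2 (13.1 CPM) and Unc13a (27.2 CPM), replicate 3 for Shank1 (103.5 CPM) and Slc17a7 (2.96 CPM, 1 read), and replicate 2 for Shank2 (25.7 CPM). The postsynaptic sum of Eed-/- astrocyte replicate 1 stood below the others at 227.7 CPM. Eed+/+ replicate 3 and Eed-/- replicates 1 and 3 were outside the alignment limits. Eed+/+ replicate 3 also had the highest neuron marker sum of all 15 libraries (6348 CPM), and Eed-/- replicate 5 the highest of the Eed-/- astrocytes (4303 CPM). The part of alignment and of neuron markers in these values was not tested.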

How the results depend on the processing

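In all 6 comparisons, 0 of the genes tested were called under RLE size factors, a mean count above 10, DESeq2 and limma-voom with sample quality weights. Within the alignment limits the count was 0 between Eed-/- astrocytes and neurons and between the genotypes of astrocytes. This held for edgeR and for DESeq2 (the latter chosen after seeing the data). The other comparisons within the limits rest on 1 Eed+/+ neuron library, and no count is given for them. The count was also 0 in the first run of library numbers alone (5 comparisons, without that of neurons between genotypes) and in the second run alone (astrocytes between genotypes). With a replicate block it was 0 too, although whether replicate numbers pair the samples is not known. Over both genotypes that block gave median log2 fold changes (astrocytes minus neurons) of -1.51 presynaptic, -1.33 postsynaptic and -1.12 over all genes. Exceptions were confined to Eed-/- against Eed+/+ neurons, where 1 gene was called with no filter on low counts (Syt1), and where leaving out each library in turn gave 0 to 6 genes, the 6 without Eed+/+ replicate 1, the arm then holding 1 library. The cause was not tested. Single genes moved more: of 4758 alternative fold changes, 404 changed sign, none of them called in either setting. Depth set a floor of 1.11 to 9.53 CPM per library, and 10 of the 40 genes did not pass the filter on low counts between the genotypes of astrocytes (5 with a mean count above 10 as the filter).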

Other observations

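The library whose labels name both cell types had 221456 gene reads, with 17.75% of its reads uniquely aligned, and 9 of the 40 genes had a read in it. Gria2 had 247 reads (1115 CPM by its total), Nlgn3 133 and Nrxn2 14, Camk2b had 4, and Cplx2, Bsn, Nrxn3, Nlgn1 and Shank3 had 1 each.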
